A study of Mus musculus with 6 samples.

Results

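The genes described here are 10 genes of NAD metabolism in cell lines grown out of mouse liver tumors, taken by symbol from the 20856 genes with values in the deposited RPKM table. *Bst1* heads the list because it had the largest drop, between these same lines, among the tested genes of a network that the study drew of genes bound and regulated by MLL3. The values that chose it are therefore given as a description, with no test. The other 9 (*Cd38*, *Nampt*, *Nnmt*, *Nmnat1*, *Nmnat3*, *Nadsyn1*, *Nadk*, *Parp1* and *Sirt1*) were listed for their place in the pathway. They were chosen with earlier results of these data known, so counts among them are a description. Of the 10, all but *Cd38* were high enough to enter the test.

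NAD carries electrons in central metabolism and is also cut up as a substrate, so cells must keep making it. The liver can build it from tryptophan (the de novo route), from nicotinic acid (the Preiss-Handler route) or by salvage of the nicotinamide that NAD-consuming enzymes release. NAMPT starts salvage, the NMNAT enzymes and NADSYN1 finish the routes, and NADK turns NAD into NADP. BST1 (CD157) and its paralog CD38 are cell surface enzymes that consume NAD, PARP1 and SIRT1 consume it in the nucleus, and NNMT removes nicotinamide by methylation.

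RNA was sequenced from 6 untreated lines of C57BL/6 background. All of them came from tumors started in vivo by hydrodynamic injection of a *Myc* transposon together with a pX330 plasmid that expresses Cas9 and a guide RNA. The guide targeted *Trp53* in 3 lines (Myc;sgp53/Cas9 in the labels, sg*Trp53* here) and *Kmt2c*, which encodes MLL3, in the other 3 (Myc;sgMll3/Cas9, sg*Kmt2c* here). According to the study's methods the mice were adult females, each line came from a different mouse, and cultures were passaged on collagen until no fibroblasts were visible. The names of sg*Kmt2c* lines 2 and 3 in the table begin with the same character, and the labels do not say whether these lines share an origin. An alternative fit therefore took their mean as a single sample. No line with both genes intact was analysed here, so loss of MLL3 function and retention of p53 cannot be told apart in any difference between the genotypes.

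RPKM scales the reads of a gene by its listed transcript length (in kilobases) and by the library total. Whole reads could be recovered from the values, and the totals were 5312182 to 6878625 in the sg*Trp53* libraries and 3680068 to 4704539 in the sg*Kmt2c* libraries. *Trp53* lay at 17.2 to 19.4 RPKM in sg*Trp53* lines and at 92.2 to 124 RPKM in sg*Kmt2c* lines, while *Kmt2c* overlapped (18.4 to 24.2 against 9.51 to 25.0 RPKM). *Alb*, the defining product of hepatocytes, stayed between 0.644 and 4.36 RPKM in every line. The library of sg*Kmt2c* replicate 1 stood apart, with summed RPKM over 8 hepatocyte markers of 5668 against 2.67 to 305 in the other 5 lines. Most of that sum came from *Apob* (4385 RPKM) and *Hnf4a* (1186 RPKM), whose listed lengths of 1118 and 431 bases are short of the 13934 and 4362 bases in GENCODE M1. The other 6 markers summed to 96.7 RPKM there and to 1.79 to 9.56 RPKM in the other 5 lines. Of the 11617 genes tested with limma on log2(RPKM + 1), 0.129% passed an adjusted p-value under 0.05.

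*Bst1* was transcribed in all sg*Trp53* lines and close to absent in 2 of the 3 sg*Kmt2c* lines. It lies on chromosome 5 of GRCm38 from 43818885 to 43843986. Its level was 401, 43.3 and 217 RPKM in sg*Trp53* replicates 1, 2 and 3, from 1251, 118 and 764 reads. The sg*Kmt2c* values were 0.829, 0.530 and 16.0 RPKM (2, 1 and 35 reads). The genotypes did not overlap, although the lowest sg*Trp53* line (replicate 2) lay only 2.71-fold above the highest sg*Kmt2c* line (replicate 3). The lines of each genotype differed widely among themselves, 9.25-fold across the sg*Trp53* lines and 30.2-fold across the sg*Kmt2c* lines. The means were 220.2 ± 179 and 5.78 ± 8.84 RPKM (SD, n = 3 lines each), a 38.1-fold difference, and the log2 difference of log2(RPKM + 1) was -5.44 (standard error 1.15). Without sg*Kmt2c* replicate 1 the log2 difference was -4.94, and without sg*Kmt2c* replicate 3 it was -6.55.

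**Figure D1:**
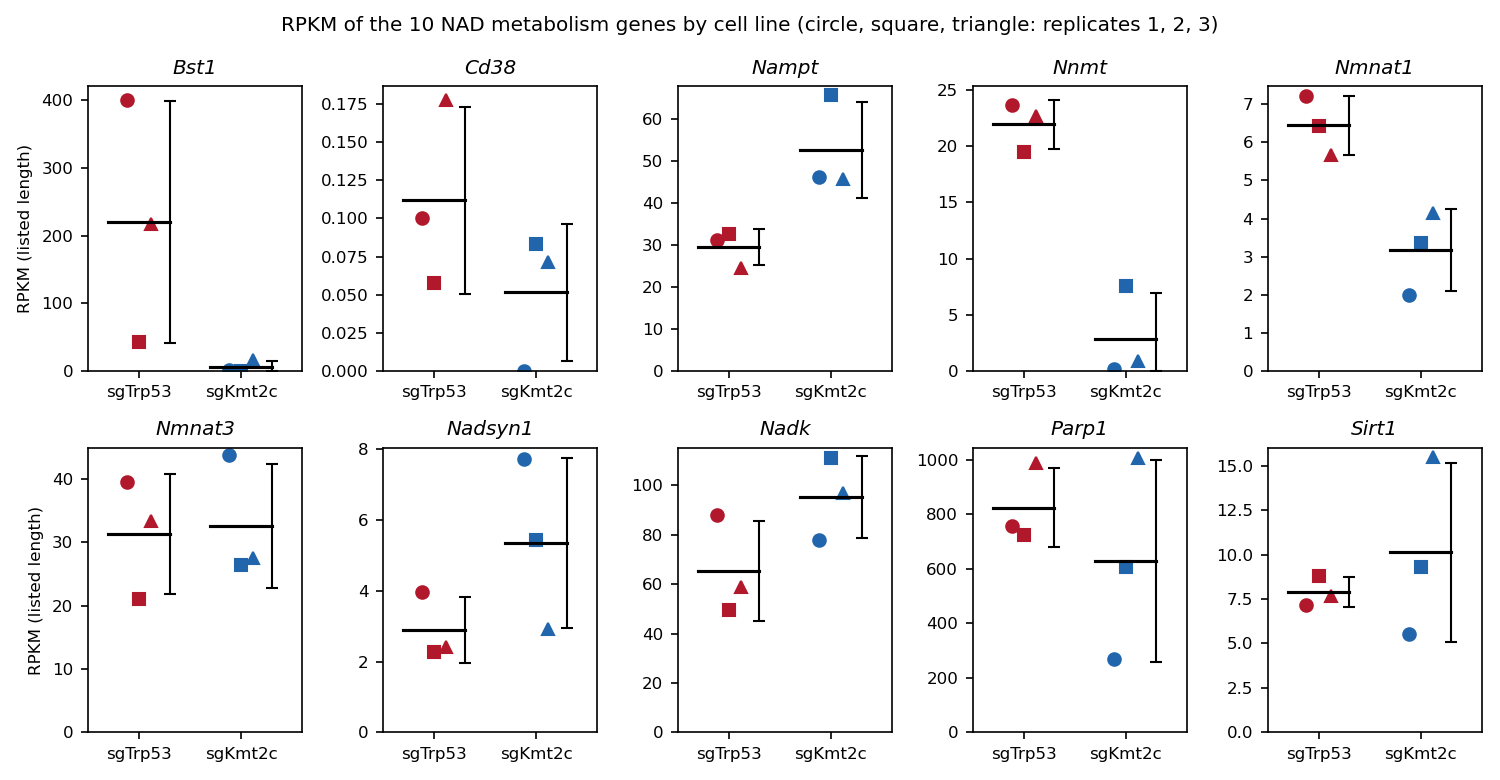
RPKM (y axis, linear, a separate scale in each panel) of the 10 genes in the 3 sg*Trp53* lines (red) and the 3 sg*Kmt2c* lines (blue). Symbols are lines (circle, square and triangle for replicates 1, 2 and 3), horizontal bars are means, and error bars are ± SD, cut at 0. *Bst1*, *Nnmt* and *Nmnat1* lie lower in every sg*Kmt2c* line, *Nampt* lies higher, and the other 6 panels overlap.

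*Cd38*, the paralog of *Bst1* and its neighbor on the chromosome (from 43868553 to 43912375), was not expressed at a level these libraries can measure. It had 2, 1 and 4 reads in sg*Trp53* lines and 0, 1 and 1 in sg*Kmt2c* lines. A count of 0 in sg*Kmt2c* replicate 1 allows up to 3 reads, or 0.195 RPKM. No fold is given for so few reads, and a difference was not detectable at this depth. RefSeq promoter sequences (GRCm38.p6) were on hand for 8 of the 10 genes, and *Bst1* and *Nnmt* are not among the 8. The 250 bases before the RefSeq start of *Cd38* (chr5:43868559-43868808, plus strand) are shown as the promoter of the barely detected paralog, with none of its letters in capitals because neither of the motifs described below occurs in it. The RefSeq start lies 256 bases inside the span that the table gives for the gene, so the window lies within that span:
Cd38: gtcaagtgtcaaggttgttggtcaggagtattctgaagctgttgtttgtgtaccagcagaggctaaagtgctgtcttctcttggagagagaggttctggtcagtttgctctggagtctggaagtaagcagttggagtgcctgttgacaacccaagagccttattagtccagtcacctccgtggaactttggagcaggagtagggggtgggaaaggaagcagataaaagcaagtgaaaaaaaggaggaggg
This window holds 1 CG dinucleotide, where the median over all 32851 promoters of the same length is 6.

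Within 500 kb of the start of *Bst1* the table lists 10 other genes, and 5 of them could be tested. In all 5 the lines of the genotypes overlapped, and none passed an unadjusted p-value under 0.05 by limma (adjusted p-values from 0.635 to 0.984). Since the genotypes did not overlap in 16.2% of all genes tested and 8.58% had such a p-value, 0 of 5 is near the background. *Fbxl5*, which encodes an iron-sensing ubiquitin ligase subunit, overlaps *Bst1* by 2754 bases. The sg*Trp53* lines had 47.6, 25.6 and 50.2 RPKM and the sg*Kmt2c* lines 54.8, 24.0 and 41.0 RPKM. The log2 fold change of *Fbxl5* was -0.06 (95% confidence interval -0.98 to 0.87), and the sign turned with the median-of-ratios scaling (0.02). The library kit does not keep strand, so reads from the shared stretch cannot be assigned to either gene with certainty. *Prom1*, a progenitor surface marker, lay at 5.54, 0.569 and 3.55 against 0.428, 0 and 3.01 RPKM. It was lowest in replicate 2 of each genotype and overlapped between the genotypes. *Fgfbp1* leaned the other way, at 1.47, 2.45 and 4.37 against 46.1, 6.85 and 3.05 RPKM. Its log2 fold change was 1.68 (95% confidence interval -0.43 to 3.79, adjusted p = 0.635 from limma), so a large increase was not excluded. *Cc2d2a* and *Tapt1* had log2 fold changes of -0.04 and 0.08. *C1qtnf7*, *Gm15866*, *Gm7879* and *Gm5292* were, like *Cd38*, too low to test.

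**Figure D2:**
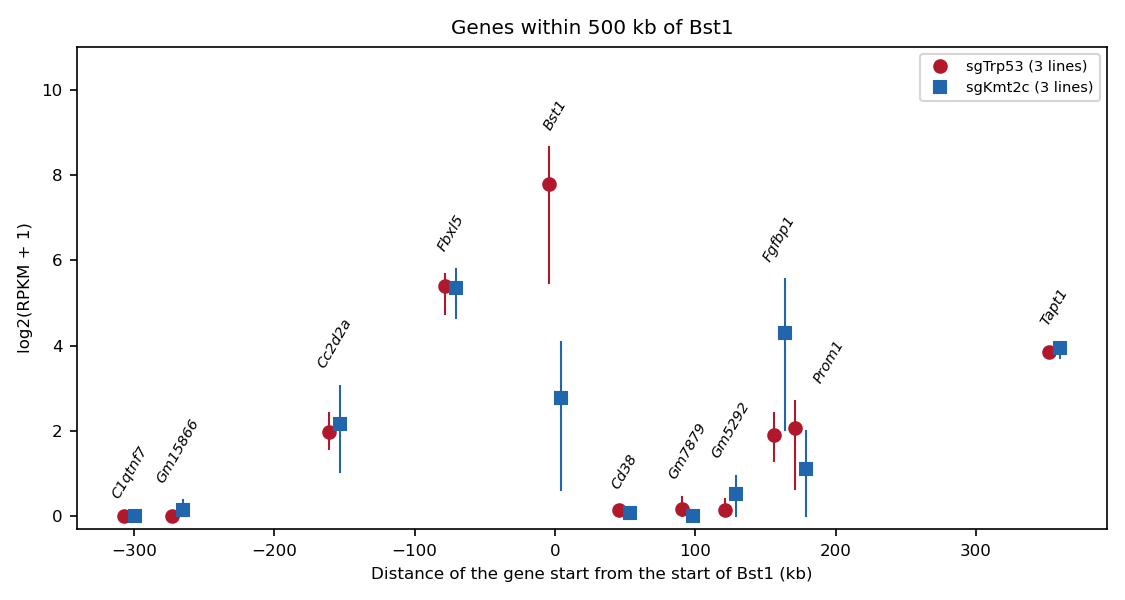
Level of each gene whose start lies within 500 kb of the start of *Bst1*, as log2(RPKM + 1) (y axis) against the distance between gene starts in kb (x axis). Symbols are the log2 of the mean RPKM plus 1 of the 3 sg*Trp53* lines (red circles) or 3 sg*Kmt2c* lines (blue squares), vertical lines span the lowest to the highest line, and only *Bst1* has spans that do not meet.

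Some myeloid marker genes lay lower in the same lines as *Bst1*, whose product is found on myeloid and bone marrow stromal cells. Summed over 9 myeloid markers, the RPKM was 50.1, 23.7 and 62.7 in sg*Trp53* lines and 6.60, 5.91 and 15.4 in sg*Kmt2c* lines, without overlap. *Lyz2* made up most of the sum in every sg*Trp53* line, and the separation of the sums rests largely on it. *Cd68*, which overlapped, made up most of the sum in sg*Kmt2c* replicates 1 and 2 (5.35 and 5.29 RPKM). In 5 of the 9 all sg*Kmt2c* values lay under all sg*Trp53* values. Of the 5, 3 (*Adgre1*, *Tyrobp* and *Fcer1g*) were too low to test, with at most 11 reads in any library. Of the 3 markers that could be tested, *Csf1r* and *Lyz2* lay lower in this way and *Cd68* did not, against 10.4% of all genes tested. *Lyz2*, which encodes lysozyme, stood at 29.0, 17.1 and 45.3 RPKM against 0, 0.214 and 12.4 RPKM. *Csf1r*, the receptor for macrophage colony-stimulating factor, stood at 10.0, 1.70 and 8.33 RPKM against 0.932, 0 and 0.967 RPKM. The log2 fold change was -3.53 for *Lyz2* and -2.06 for *Csf1r*, and neither passed the threshold (adjusted p = 0.427 and 0.440 from limma). *Ptprc* (CD45), which defines blood cells, had at most 2 reads in any library, *Ly6c2* had none, and all 4 B cell markers were at 0 reads throughout. The part of myeloid cells in the level of *Bst1* was not tested, and in bulk RNA fewer expressing cells and less RNA per cell cannot be told apart. Among fibroblast and stellate markers the summed RPKM ranged from 15.2 to 986 in sg*Trp53* lines and from 0.282 to 149.6 in sg*Kmt2c* lines, where only *Dcn* did not overlap.

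**Figure D3:**
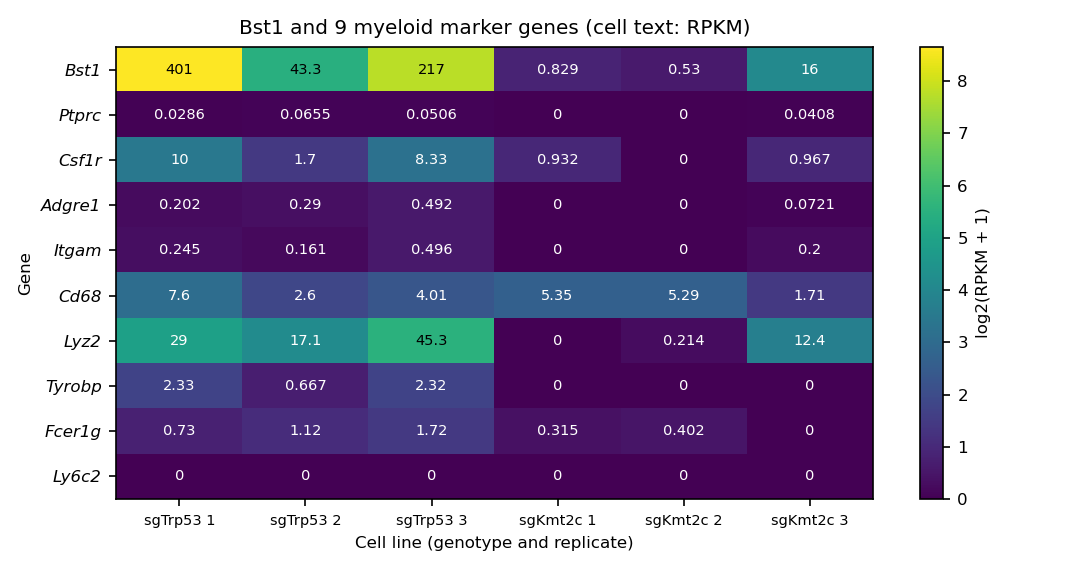
RPKM (printed in each cell) and log2(RPKM + 1) (color scale) of *Bst1* and the 9 myeloid markers in the 6 lines. *Bst1*, *Csf1r*, *Adgre1*, *Lyz2*, *Tyrobp* and *Fcer1g* are higher in each sg*Trp53* line than in any sg*Kmt2c* line, whereas *Ptprc* stays at or under 0.0655 RPKM and *Cd68* overlaps.

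Across the 6 libraries, the genes whose log2(RPKM + 1) followed *Bst1* most closely were *Bex1* (Pearson's r = 0.9952), *Fcgr3* (0.9951), *Slc15a3* (0.9937), *H6pd* (0.9914) and *Mlh3* (0.9912). These are a description over 6 points that share the genotype split, chosen as the 5 highest of all genes tested. *Bex1* came closest in shape, with 124, 13.2 and 105 RPKM in sg*Trp53* lines and 0, 0 and 5.40 RPKM in sg*Kmt2c* lines, so it was also lowest in sg*Trp53* replicate 2 and highest among the sg*Kmt2c* lines in replicate 3. *Fcgr3*, a receptor for antibody constant regions that myeloid cells carry, rested on few reads (16, 7 and 18 against 0, 0 and 3).

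None of the 8 tested members other than *Bst1* passed an adjusted p-value under 0.05 by limma, where 0.129% of all genes tested did (0.0516% higher and 0.0775% lower in sg*Kmt2c*), or by limma voom on the recovered reads, where 0.0344% did. At an unadjusted p-value under 0.05 there were 3 of the 8 (*Nnmt*, *Nampt* and *Nmnat1*), where 8.58% of all genes tested were (8.21% by limma voom). Of all genes tested, 3.25% were higher and 5.34% lower in sg*Kmt2c* at this threshold, and among the members *Nampt* was higher and the other 2 lower. The same 3 were the members whose genotypes did not overlap, against 16.2% of all genes tested (5.72% higher and 10.4% lower in sg*Kmt2c*). Without sg*Kmt2c* replicate 3 the number at an unadjusted p-value under 0.05 was 5 by limma, with *Parp1* and *Nadsyn1* added (adjusted p = 0.391 and 0.345 from limma), while the share of all genes tested was 12.7% in that fit. Without sg*Kmt2c* replicate 1 *Nadk* joined the 3 (adjusted p = 0.526 from limma), with 9.25% of all genes tested. An exact permutation test of a single gene, two-sided, cannot give less than 0.1 with 3 lines against 3.

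*Nampt* encodes the rate-limiting enzyme of salvage. It lies on chromosome 12 from 32820335 to 32853369. The sg*Trp53* lines had 31.2, 32.7 and 24.6 RPKM and the sg*Kmt2c* lines 46.2, 65.9 and 45.8 RPKM, from 771 or more reads each. All sg*Kmt2c* lines were above all sg*Trp53* lines, with 1.40-fold between the nearest. The means were 29.5 ± 4.28 and 52.6 ± 11.5 RPKM (SD, n = 3 each), and the log2 fold change was 0.80 (95% confidence interval 0.26 to 1.35, adjusted p = 0.422 from limma). The exact permutation test gave p = 0.1. Without sg*Kmt2c* replicate 1 the log2 fold change was 0.89. The gene overlaps *Gdap10* by 5033 bases, a gene with at most 78 reads in any library.

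*Nmnat1* encodes the nuclear enzyme that joins the nucleotide to ATP. It lies on chromosome 4 from 149467572 to 149485202 and lay lower in sg*Kmt2c* lines. The sg*Trp53* lines had 7.22, 6.44 and 5.68 RPKM and the sg*Kmt2c* lines 2.00, 3.37 and 4.14 RPKM, from 25 to 117 reads. No line of either genotype reached into the range of the other, and the nearest lines were 1.37-fold apart. The means were 6.45 ± 0.770 and 3.17 ± 1.08 RPKM (SD, n = 3 each), and the log2 fold change was -0.87 (95% confidence interval -1.56 to -0.18, adjusted p = 0.50 from limma). The exact permutation test gave p = 0.1. Without sg*Kmt2c* replicate 1 the log2 fold change was -0.65.

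The 250 bases before the RefSeq start of *Nampt* (chr12:32820085-32820334, plus strand) and of *Nmnat1* (chr4:149485211-149485460, minus strand, the first of its 2 listed starts) are shown because these are the synthesis genes whose genotypes did not overlap, in opposite directions. Capitals mark GGGCGG and its reverse complement CCGCCC, the box bound by SP1 family factors:
Nampt: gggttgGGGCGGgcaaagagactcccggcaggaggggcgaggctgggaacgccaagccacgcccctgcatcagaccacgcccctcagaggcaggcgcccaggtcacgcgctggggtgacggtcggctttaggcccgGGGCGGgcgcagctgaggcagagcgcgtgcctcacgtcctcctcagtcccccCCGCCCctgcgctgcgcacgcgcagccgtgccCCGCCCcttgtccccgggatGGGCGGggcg
Nmnat1: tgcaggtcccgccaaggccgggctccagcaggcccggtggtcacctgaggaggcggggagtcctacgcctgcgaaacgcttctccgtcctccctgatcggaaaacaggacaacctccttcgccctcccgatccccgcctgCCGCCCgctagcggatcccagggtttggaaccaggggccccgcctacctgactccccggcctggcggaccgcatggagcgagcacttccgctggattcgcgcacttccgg
The *Nampt* window holds the box 5 times and 27 CG dinucleotides, and the *Nmnat1* window holds it 1 time and 24 CG dinucleotides. The box, on either strand, occurs in 32.7% of all promoters. CACGTG, the E-box that MYC and related factors bind and that reads alike on both strands, occurs in none of the 3 printed windows and not in that of *Nadsyn1* or *Nmnat3*. It occurs 2 times in the window of *Sirt1*, 1 time in that of *Parp1* and 1 time in the second listed start of *Nadk*, and in 6.02% of all promoters. These are matches of letters only, and the RefSeq starts of *Nmnat3* and *Sirt1* lie 9135 and 42669 bases inside the spans in the table.

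*Nmnat3*, which encodes the mitochondrial form, overlapped between the genotypes. It stood at 39.5, 21.0 and 33.3 RPKM against 43.8, 26.4 and 27.5 RPKM, with the highest line in sg*Kmt2c* and the lowest in sg*Trp53*. Its log2 fold change was 0.07 (95% confidence interval -0.68 to 0.82, adjusted p = 0.951 from limma). *Nadsyn1*, which encodes the enzyme that amidates the last acid intermediate of the de novo and Preiss-Handler routes, stood at 3.97, 2.28 and 2.42 RPKM against 7.71, 5.44 and 2.92 RPKM. Its sg*Kmt2c* replicate 3 fell inside the sg*Trp53* range. The log2 fold change was 0.66 (95% confidence interval -0.23 to 1.55, adjusted p = 0.651 from limma). *Nadk*, the kinase that makes NADP, stood at 88.0, 49.4 and 58.7 RPKM against 77.7, 111 and 97.0 RPKM. Here sg*Trp53* replicate 1 lay above sg*Kmt2c* replicate 1, and the log2 fold change was 0.56 (95% confidence interval -0.08 to 1.20, adjusted p = 0.608 from limma). For these 3 genes the intervals leave room for an increase of the size seen in *Nampt*.

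*Nnmt*, which encodes the methyltransferase that clears nicotinamide, had the largest difference among the members after *Bst1*. It lies on chromosome 9 from 48591877 to 48605153. It stood at 23.7, 19.5 and 22.7 RPKM in sg*Trp53* lines, from 151, 108 and 163 reads. The sg*Kmt2c* values were 0.203, 7.54 and 0.897 RPKM (1, 29 and 4 reads). The sg*Trp53* lines lay close together (1.22-fold from lowest to highest), whereas the sg*Kmt2c* lines spread 37.1-fold, with replicate 2 well above the other 2. The means were 22.0 ± 2.23 and 2.88 ± 4.05 RPKM (SD, n = 3 each), 7.62-fold apart. The log2 fold change was -3.09 (95% confidence interval -4.75 to -1.42) with an unadjusted p of 0.00342, and it did not pass across all genes (adjusted p = 0.328 from limma). The exact permutation test gave p = 0.1. Without sg*Kmt2c* replicate 1 the log2 fold change was -2.51.

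*Nnmt* differed from *Bst1* in which sg*Kmt2c* line kept expression. *Bst1* was highest there in replicate 3 and *Nnmt* in replicate 2. Across the 6 libraries Pearson's r with *Bst1* was 0.721 for *Nnmt*, 0.893 for *Nmnat1* and -0.892 for *Nampt*, as a description over points that share the genotype split.

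The nuclear consumers among the members, *Parp1* and *Sirt1*, overlapped between the genotypes. *Parp1*, whose product adds chains of ADP-ribose at DNA breaks, stood at 757, 725 and 989 RPKM for sg*Trp53* against 269.6, 608 and 1007 RPKM for sg*Kmt2c*. Both the lowest and the highest line were of the sg*Kmt2c* genotype. The log2 fold change was -0.57 (95% confidence interval -1.70 to 0.55, adjusted p = 0.731 from limma), and without sg*Kmt2c* replicate 1, the lowest line, it was -0.06. *Sirt1*, which encodes a deacetylase that uses NAD, stood at 7.18, 8.82 and 7.67 RPKM against 5.56, 9.31 and 15.5 RPKM. Again sg*Kmt2c* lines included the lowest and the highest value. The log2 fold change was 0.23 (95% confidence interval -0.64 to 1.09, adjusted p = 0.851 from limma), and without sg*Kmt2c* replicate 3 it was -0.11.

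Levels of different genes can be compared only per length, and the listed length was short for 3 members. It was 512 bases for *Bst1*, 392 for *Parp1* and 349 for *Nmnat3*, where the longest coding transcript in GENCODE M1 has 2115, 3846 and 2156 bases. For the other 7 both lengths differed by at most 15%. With the GENCODE lengths *Parp1* averaged 84.0 ± 14.6, *Nadk* 61.1 ± 18.8 and *Bst1* 53.3 ± 43.3 RPKM in sg*Trp53* lines (SD, n = 3 each), and the ranges of neighbors in this order overlapped. *Nampt* followed at 29.5 RPKM and *Nnmt* at 22.0 RPKM, each separate from the next. *Sirt1*, *Nmnat1*, *Nmnat3* and *Nadsyn1* came after them, from 7.89 to 2.89 RPKM on average and overlapping from each to the next, and *Cd38* was last. In the sg*Kmt2c* lines *Nadk* (89.1 ± 15.7 RPKM), *Parp1* (64.0 ± 37.6) and *Nampt* (52.6 ± 11.5) led (SD, n = 3 each). The range of *Parp1* overlapped those of *Nadk* and *Nampt*, which did not overlap each other. *Bst1* came second to last at 1.40 ± 2.14 RPKM. With the listed lengths *Parp1* was first in both genotypes and separate from the next gene.

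A wider list of NAD pathway genes had 62 members in the table besides *Bst1*, and 43 could be tested. None passed an adjusted p-value under 0.05 by limma or limma voom, where 0.129% and 0.0344% of all genes tested did. At such shares 0 of 43 is near the background. At an unadjusted p-value under 0.05 there were 4 by limma (9.30% of the 43, close to the 8.58% of all genes tested), the 3 members above and *Noct*, listed under its older symbol *Ccrn4l*. Outside the members 35 genes were tested, and 1 of them (2.86%) had such a p-value. Leaving out sg*Kmt2c* replicate 1 gave 8 of the 43, with 9.25% of all genes tested, and leaving out replicate 2 of that genotype gave 7 of the 43, with 8.86% of all genes tested. The median log2 fold change was 0.00, against -0.09 for all genes tested, with 22 genes above 0 and 21 below. The genotypes did not overlap in 8, of which *Nampt* was the gene that lay higher and 7 lay lower in sg*Kmt2c* lines. This is 18.6% of the 43, against 16.2% of all genes tested (5.72% higher and 10.4% lower in sg*Kmt2c*). Outside the members it was 5 of the 35 tested genes (14.3%), all of them lower in sg*Kmt2c* lines. *Noct*, which encodes a phosphatase of NADP, stood at 19.2, 20.6 and 23.2 RPKM against 5.41, 7.80 and 19.9 RPKM. Its sg*Kmt2c* replicate 3 lay inside the sg*Trp53* range (log2 fold change -1.05, adjusted p = 0.580 from limma).

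**Figure D4:**
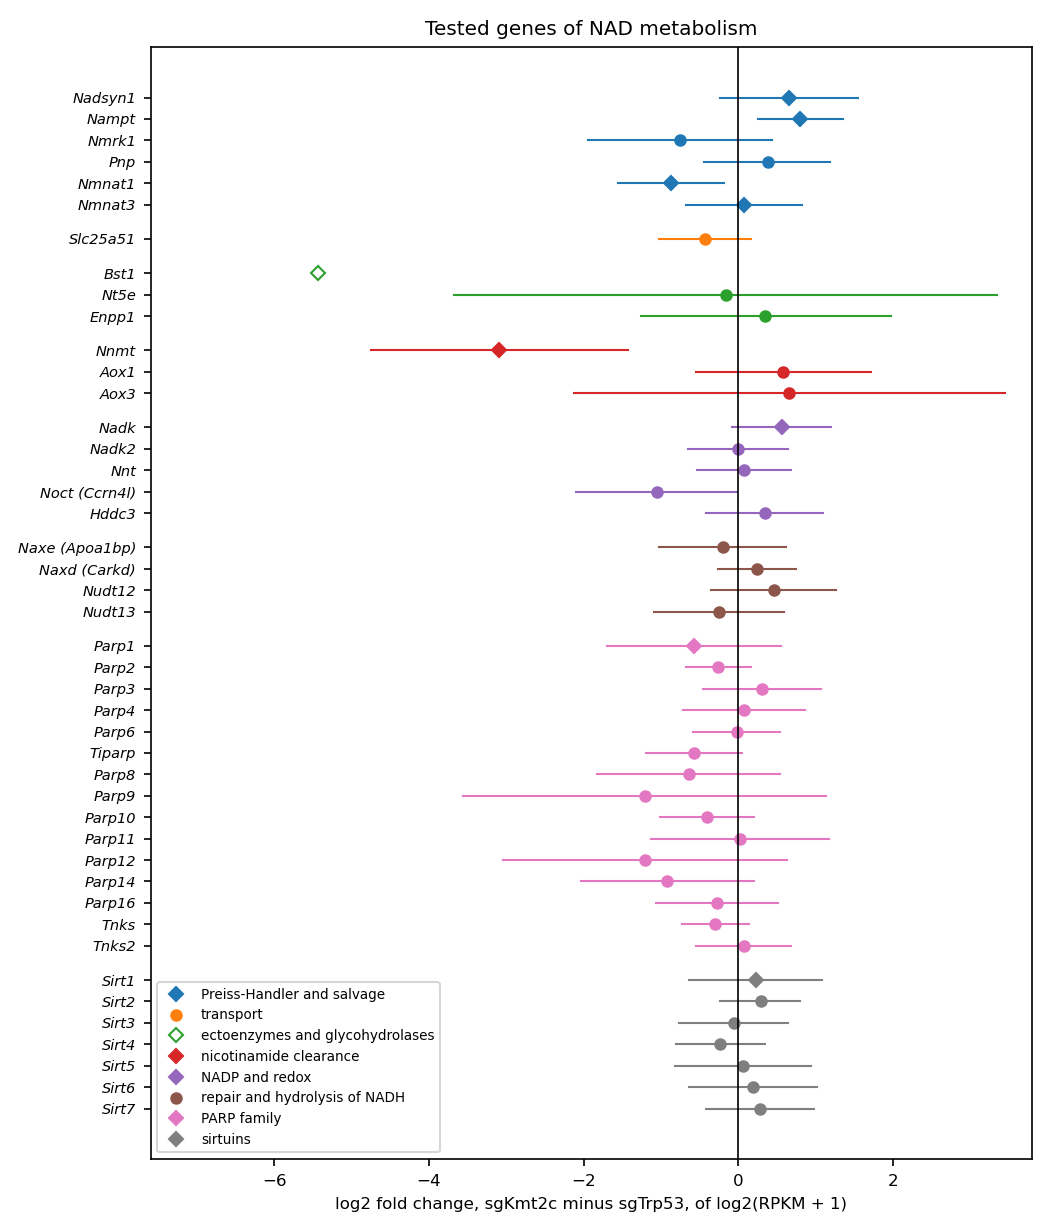
Log2 fold change (x axis, sg*Kmt2c* minus sg*Trp53*, of log2(RPKM + 1)) of *Bst1* and the 43 tested genes of the wider list, colored by role, with 95% confidence intervals from limma as horizontal lines. Diamonds are the members described here, circles the other genes, and *Bst1* is open and without an interval because it was chosen by this difference. The intervals of *Nampt*, *Nmnat1*, *Nnmt* and *Noct* do not reach 0, and those of the other 39 cross it.

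The genes listed under the de novo route were close to silent in all lines. Of these 8 genes, which include the side-branch gene *Acmsd* and not *Ido1*, none was high enough to test. Among them 7 had at most 3 reads in every library, with *Kmo*, *Haao* and *Qprt* at 0 throughout. *Afmid*, the remaining gene, had 4 to 36 reads. *Naprt*, the first enzyme of the Preiss-Handler route, had 48 reads in sg*Trp53* replicate 2 and at most 7 in any other library. Beside *Nampt*, the salvage gene *Nmrk1*, a nicotinamide riboside kinase, stood at 17.0, 14.7 and 18.7 RPKM against 4.76, 22.0 and 7.86 RPKM, so its genotypes overlapped.

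Among the ectoenzymes, *Nt5e* (CD73), which strips phosphate from extracellular mononucleotides, spread 149.5-fold across the sg*Kmt2c* lines. The sg*Trp53* lines had 8.74, 17.2 and 5.49 RPKM and the sg*Kmt2c* lines 112, 0.747 and 3.16 RPKM, so replicate 1 of the latter was far above every line. Its log2 fold change was -0.16 (95% confidence interval -3.68 to 3.35, adjusted p = 0.975 from limma). *Art1*, *Art3*, *Art4* and *Art5*, ADP-ribosyltransferases of the cell surface, had no reads. *Slc25a51*, the carrier that brings NAD into mitochondria, was lower in every sg*Kmt2c* line (25.4, 21.6 and 26.3 against 12.9, 20.9 and 21.0 RPKM) but separated by only 1.03-fold (adjusted p = 0.664 from limma). *Slc12a8*, a proposed nicotinamide mononucleotide carrier too low to test, had 11, 1 and 5 reads in sg*Trp53* lines and none in sg*Kmt2c* lines. *Nnt*, the mitochondrial transhydrogenase that links NAD and NADP, stood at 34.5 to 41.8 and at 28.9 to 52.1 RPKM (adjusted p = 0.933 from limma).

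All 15 genes of the PARP family could be tested, with a median log2 fold change of -0.30, against -0.09 for all genes tested. Of these, 11 had a value below 0 (73.3%, against 58.0% of all genes tested), and 10 to 12 did under the other scalings between libraries and limma voom. None passed an unadjusted p-value under 0.05 by limma, where 8.58% of all genes tested did. In *Parp2*, *Tiparp*, *Parp14* and *Tnks* all sg*Kmt2c* values lay under all sg*Trp53* values (26.7% of the 15, against 10.4% of all genes tested). The separation was 1.01-fold to 1.08-fold between the nearest lines, at adjusted p-values from 0.597 to 0.705 (limma). All 7 sirtuins could be tested too, with a median log2 fold change of 0.19. The genotypes overlapped in each, where 16.2% of all genes tested did not overlap. None had an unadjusted p-value under 0.05 by limma, where 8.58% of all genes tested did, and the lowest adjusted p-value was 0.719. Of the 7, 5 had a value above 0 (6 with quantile normalization or median-of-ratios scaling), against 4878 of the 11617 genes tested. Counts over 7 genes are a description.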

How the data were processed

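RNA of 6 cell lines, 3 per genotype, was measured by RNA-seq. Per the labels and methods, the authors trimmed adaptors with Trimmomatic, aligned to GRCm38 with STAR and counted reads with HTSeq. The values the authors deposited are RPKM by the name given to the table and FPKM in the methods, and its column names give no unit. The table has 6 further sample columns, which were not used, and 209 rows without values. The authors' deposited DESeq2 comparison (fold changes and p-values) was not used. All libraries shared 2 lanes of a flow cell. RPKM times listed length gave whole reads for 100% of values above 0 (within 0.01 reads), and intervals of reads cover counting error only. No pair of replicates was alike within counting error (chi-square divided by genes, 28.5 at least).

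Genes with RPKM of at least 1 in at least 3 libraries (11617) were tested with limma 3.58.1 in R 4.3.3 (eBayes with trend) on log2(RPKM + 1), with a single genotype term, and p-values were adjusted by Benjamini-Hochberg over all of them. Fold changes on this scale understate those of low genes. Alternatives changed the pseudocount, filter, scaling, moderation, lines and block, used limma voom on recovered reads or, added after seeing the data, used GENCODE M1 transcript lengths. Named were the members, pathway genes at an unadjusted p-value under 0.05 or without overlap, genes within 500 kb of *Bst1*, the 5 most like it, both targeted genes and cell type markers. *Naprt*, *Nmrk1*, *Nt5e*, *Nnt* and other pathway genes outside this rule were chosen after their values were seen. Of 67 pathway genes listed, 63 were found, 3 of them under older symbols. Members and lists were chosen with earlier results of these data known. Plots were drawn with matplotlib.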

Additional observations from a re-analysis of the deposited data

How the results depend on the processing

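No alternative brought a member other than *Bst1*, a gene of the wider list or a tested neighbor of *Bst1* under an adjusted p-value of 0.05 (limma or limma voom). In some of these fits 0 of all genes tested passed by limma, so they say nothing about the members in particular. These were the replicate block, the fit that averaged sg*Kmt2c* replicates 2 and 3, and each fit with a line left out except sg*Kmt2c* replicate 1 (8 genes passed). The log2 difference of *Bst1* stayed between -6.20 and -4.38 under 11 alternatives and between -6.55 and -4.76 with a line left out. It had no value when an RPKM of at least 1 was required in all libraries, nor did *Nnmt*. With a line left out, *Nampt* ranged from 0.64 to 0.89, *Nmnat1* from -1.04 to -0.65 and *Nnmt* from -3.92 to -2.51 in log2 fold change. With a line left out, 2 to 5 members and 3 to 8 genes of the wider list had an unadjusted p-value under 0.05 (limma), where 4.85% to 12.7% of all genes tested did. The median of the wider list lay between -0.16 and 0.09 throughout. Values near 0 changed sign in 13 cases. *Nmnat3* ranged from -0.19 to 0.25 and *Sirt1* from -0.11 to 0.56 with a line left out. *Nmnat3* was -0.19 without sg*Trp53* replicate 2 and -0.16 without sg*Kmt2c* replicate 1, and *Sirt1* was -0.11 without sg*Kmt2c* replicate 3. *Cc2d2a* gave 0.13 with quantile normalization and 0.01 with median-of-ratios, and from -0.62 to 0.39 with a line left out (0.20 without sg*Trp53* replicate 3, 0.10 without sg*Kmt2c* replicate 3). *Fbxl5* gave 0.02 with median-of-ratios, 0.07 when replicates 2 and 3 of sg*Kmt2c* were averaged, and from -0.36 to 0.26 with a line left out (0.07 and 0.11 without sg*Trp53* replicates 1 and 3). The cause was not tested. The fit did not pair same-numbered lines, which according to the study came from different mice. The correlation of their deviations was 0.192, 0.399 and 0.0316, against -0.284 to 0.152 for lines of different number. These correlations alone do not settle whether the lines were paired. With the replicate block, 3 members kept an unadjusted p-value under 0.05 (*Nampt* 0.0133, *Nmnat1* 0.0447 and *Nnmt* 0.00430, limma) and 0 of all genes passed the adjusted threshold, against 15. Depth limits *Cd38*, *Slc12a8* and the de novo genes.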
